A study of Mus musculus with 9 samples.

Results

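The cell cycle regulators described here are the genes that the deposited table annotates to the KEGG cell cycle pathway and not to the DNA replication pathway, without the genes of the TGF-beta ligands. The table annotated 122 of its 17730 genes to the cell cycle pathway. Of these, 7 were shared with DNA replication (Mcm2 to Mcm7 and Pcna) and 3 were TGF-beta ligands, which left 112 genes. Of those, 101 averaged 1 FPKM or more across the 6 libraries, and these are the members. FPKM counts fragments per length of transcript and per sequencing depth, so levels of different genes can be set beside each other per length.

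The libraries came from cultures labelled as wild-type (WT) astrocytes, prepared from brains of newborn C57BL/6 mice and given microglia-conditioned medium (MCM). The medium came from microglia exposed to LPS (lipopolysaccharide, from the outer membrane of bacteria) in the group LPS-MCM and from microglia exposed to hemin (an iron porphyrin derived from hemoglobin) in the group Hemin-MCM, with 3 libraries in each group. Resting-MCM, another group of the series, was not analysed here, so a difference sets LPS-MCM against Hemin-MCM and does not say which of them moved. The labels name no separate cultures or animals for the libraries of a group, so the p-values rest on a spread among libraries that may be technical.

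The cell cycle is driven by cyclin-dependent kinases (CDKs), which are active only when bound to a cyclin. D-type cyclins with Cdk4 and Cdk6, followed by cyclin E with Cdk2, phosphorylate the retinoblastoma protein and its relatives, which releases E2F transcription factors to switch on genes for S phase. Cyclin A serves S phase and G2, and cyclin B with Cdk1 starts mitosis, which ends when the anaphase-promoting complex (APC/C) marks cyclin B and securin for destruction. Astrocytes of the newborn brain still divide, and CDK inhibitors hold cells in G1.

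Totals ran from 348382.7 to 359093.4 FPKM per library. The table gives no read totals. Ratios of low values between libraries gave relative depths of 0.971 to 1.07, with the first LPS-MCM library as the unit. Scaled by these depths, 54.5% of low values lay within 0.1 step of a multiple of a unit, taken as 1 fragment. An even spread between steps would give 20%, but the depths came from the same low genes, so part of the match was built in. Genes whose low values all matched gave an estimated 34900000 to 38400000 fragments. At that depth 1 FPKM on a transcript of 2 kb corresponds to 69.8 to 76.8 fragments. Across genes, libraries correlated at 0.9944 to 0.9968 within a group and at 0.9809 to 0.9854 between groups. Of 8 astrocyte markers none was near 0, and their summed level was 1230 to 1270 FPKM in LPS-MCM and 1520 to 1610 FPKM in Hemin-MCM. Marker counts stand beside 13.8% lower and 6.72% higher over all genes tested, by the limma test described below. Microglia markers were present too, and 12 of 14 were lower in LPS-MCM, with none higher (summed level 352 to 404 FPKM against 712 to 736 FPKM). Among the lower ones, P2ry12 and Tmem119 averaged 1 FPKM or more over the 6 libraries only through Hemin-MCM. Of 7 tested ependymal markers, 6 were lower and 1 was higher (271 to 286 FPKM against 331 to 342 FPKM). The higher one, Rarres2, lost its call when LPS-MCM 1 (limma adjusted p = 0.0685) or Hemin-MCM 1, 2 or 3 (0.0743, 0.0762 and 0.0784) was left out. Endothelial and mural markers summed to 1.76 to 3.08 FPKM in all 6 libraries, with Flt1 and Kcnj8 at or under 0.1 FPKM.

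The members as a whole were lower in LPS-MCM at a share near that of all genes. Limma on log2(FPKM + 1), with p-values adjusted over all 11688 genes tested and a threshold of 0.05, called 16 of the 101 members (15.8%) lower in LPS-MCM, against 13.8% of all genes tested. It called 2 members (1.98%) higher, against 6.72% of all genes, so that 18 members passed in either direction, where 20.5% of all genes did. All LPS-MCM libraries lay below all Hemin-MCM libraries for 26 members, where 24.7% of all genes did so, and above them for 9, where 12.8% did so. The median difference was -0.07 over the members and -0.039 over all genes tested. Differences are LPS-MCM minus Hemin-MCM in log2(FPKM + 1), are given ± their standard error, and shrink the change of low genes because of the added 1.

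**Figure D1:**
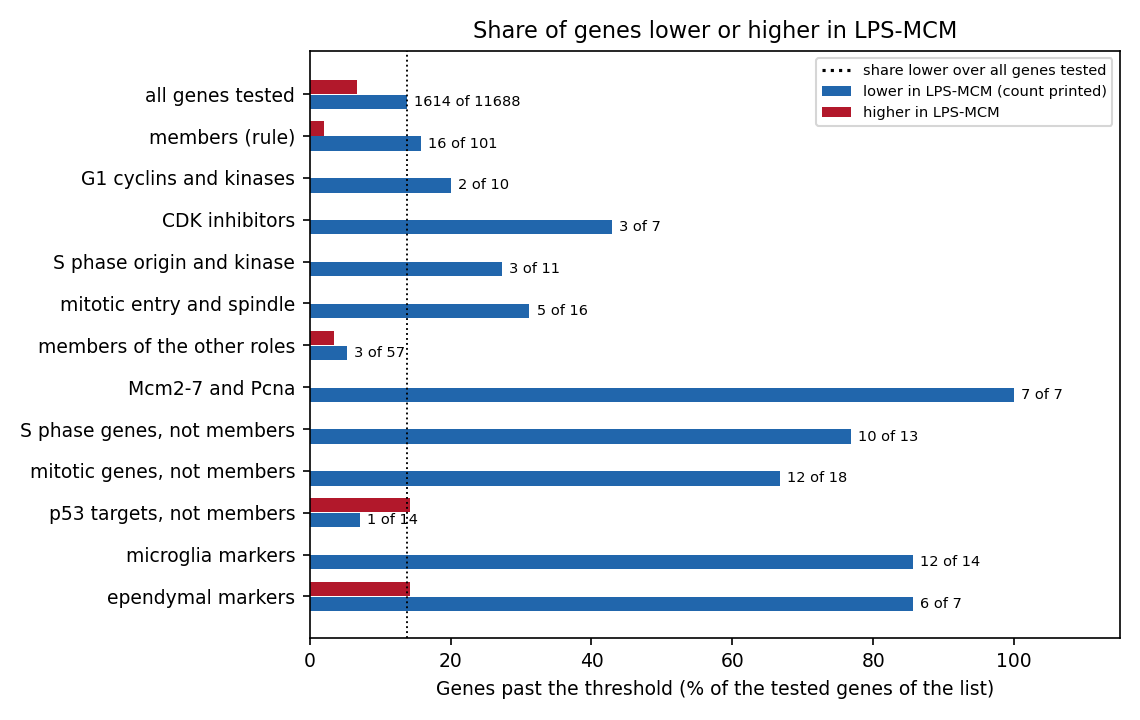
Bars give the percentage of tested genes of each list that passed the adjusted p threshold of 0.05, lower (blue, with the count) or higher (red) in LPS-MCM than in Hemin-MCM, and the dotted line marks the 13.8% lower over all genes tested. The 101 members sit near that line, the bars of their G1, S phase, mitotic and CDK inhibitor genes reach past it (with 1 of 2 G1 and 2 of 3 S phase calls on genes that met the level rule only through Hemin-MCM), and the lower bars are context lists of genes that are no members. The called genes of these lists include Clspn, P2ry12 and Tmem119, which also met that level only through Hemin-MCM.

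Counts by role follow, beside 13.8% lower and 6.72% higher over all genes tested. Of 10 G1 cyclins and kinases 2 were lower, of 7 CDK inhibitors 3, of 11 S phase genes 3, and of 16 genes of mitotic entry, the spindle checkpoint and anaphase 5, with none higher in these roles. The 57 members of the other roles held 3 lower and 2 higher genes, and their median difference was -0.029. These roles are pocket proteins and E2F factors, growth inputs, APC/C and SCF subunits, cohesin, the DNA damage checkpoint and 14-3-3 proteins. The median difference was -0.343 over 6 genes of mitotic entry, -0.129 over the S phase genes, -0.121 over the G1 genes and -0.141 over the CDK inhibitors. Ccne2, Ccna1 and Cdc45 averaged under 1 FPKM in LPS-MCM and met the level rule only through Hemin-MCM, so they had to differ. Without these 3, 1 of 9 G1 genes, 1 of 9 S phase genes and 13 of 98 members (13.3%) were lower. The 13.8% of all genes tested still counts such genes, P2ry12 and Tmem119 among them. It is therefore no like measure for these reduced shares. The lists are small, and the difference between roles was not tested.

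**Figure D2:**
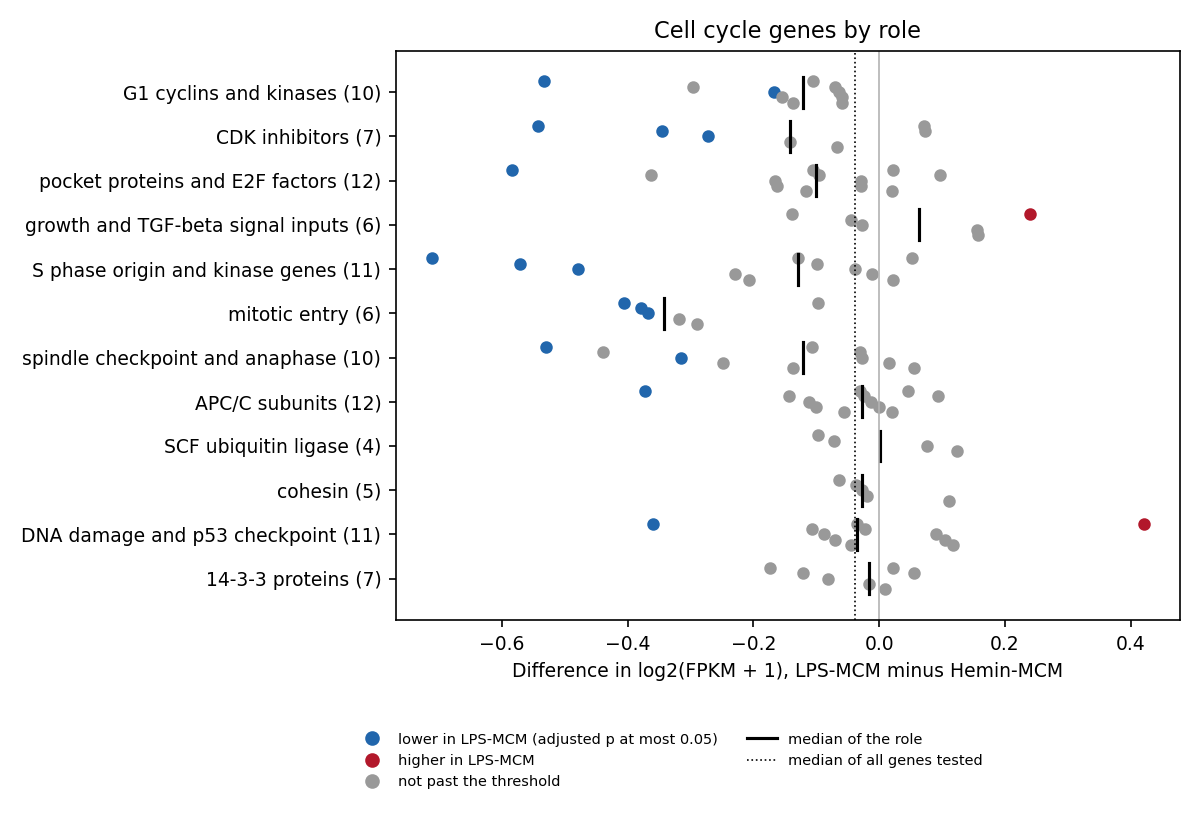
Each point is 1 member, placed by its difference in log2(FPKM + 1) (LPS-MCM minus Hemin-MCM) within its role, with the number of members in brackets, coloured by whether it passed the threshold. Vertical offsets within a role only separate the points. Short bars are medians of the roles and the dotted line is the median of all genes tested, -0.039. Mitotic entry has the most negative median, -0.343, and cohesin, SCF and 14-3-3 genes show no called gene.

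The D-type cyclins, which couple growth signals to G1, were abundant in both groups. Cyclin D1 (Ccnd1, chromosome 7, 144929931 to 144939831) was at 168.9, 154.0 and 158.7 FPKM in LPS-MCM and 174.3, 170.4 and 173.4 FPKM in Hemin-MCM. Cyclin D2 (Ccnd2) was at 44.8 ± 1.96 and 47.0 ± 2.33 FPKM (SD, n = 3 each). The LPS-MCM libraries lay below the Hemin-MCM libraries for Ccnd1 and overlapped with them for Ccnd2, and neither passed the test (limma adjusted p = 0.177 and 0.431). Cyclin D3 (Ccnd3, chromosome 17, 47505051 to 47599689) was at 27.5, 26.8 and 27.2 FPKM in LPS-MCM and 30.5, 30.9 and 30.3 FPKM in Hemin-MCM. The groups did not overlap, and its small difference passed (-0.17 ± 0.05, limma adjusted p = 0.0267). That call was lost when any library other than the third LPS-MCM library was left out (limma adjusted p = 0.0626 and 0.0696 for LPS-MCM 1 and 2, and 0.0705, 0.102 and 0.0862 for Hemin-MCM 1, 2 and 3), and with median-of-ratios scaling (0.0934). The Ccnd3 call was also lost with a replicate block in the fit (limma adjusted p = 0.0572). Ccnd3 was the one called lower member with a mean of 10 FPKM or more.

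The kinase partners did not pass. Cdk4 was at 87.9 ± 2.22 FPKM in LPS-MCM, against 92.1 ± 5.81 FPKM (limma adjusted p = 0.471), and Cdk6 at 9.29 ± 0.253 FPKM, against 10.5 ± 0.461 FPKM (limma adjusted p = 0.093). Cdk2, the partner of cyclins E and A, was at 7.71 ± 0.634 and 8.59 ± 0.866 FPKM (limma adjusted p = 0.284). Per length, Cdk4 was therefore the most abundant of these kinases in both groups.

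Cyclin E, which carries cells from G1 into S phase, has a pair of genes, and both had low levels. Ccne2 (chromosome 4, 11190433 to 11204779) was at 0.50, 0.66 and 0.85 FPKM in LPS-MCM and at 1.44, 1.36 and 1.42 FPKM in Hemin-MCM. All Hemin-MCM libraries lay above all LPS-MCM libraries, and the ratio of the means was 2.1-fold (-0.53 ± 0.10, limma adjusted p = 0.00292). Ccne2 met the level rule only through Hemin-MCM, so it had to differ in that direction. With a pseudocount of 0.1 in place of 1 the difference was -0.996. Ccne1 was at 1.59, 1.96 and 2.33 FPKM in LPS-MCM and 3.45, 2.32 and 2.20 FPKM in Hemin-MCM. Those groups overlapped, with the first Hemin-MCM library above the rest, and Ccne1 did not pass (-0.30 ± 0.14, limma adjusted p = 0.162).

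**Figure D3:**
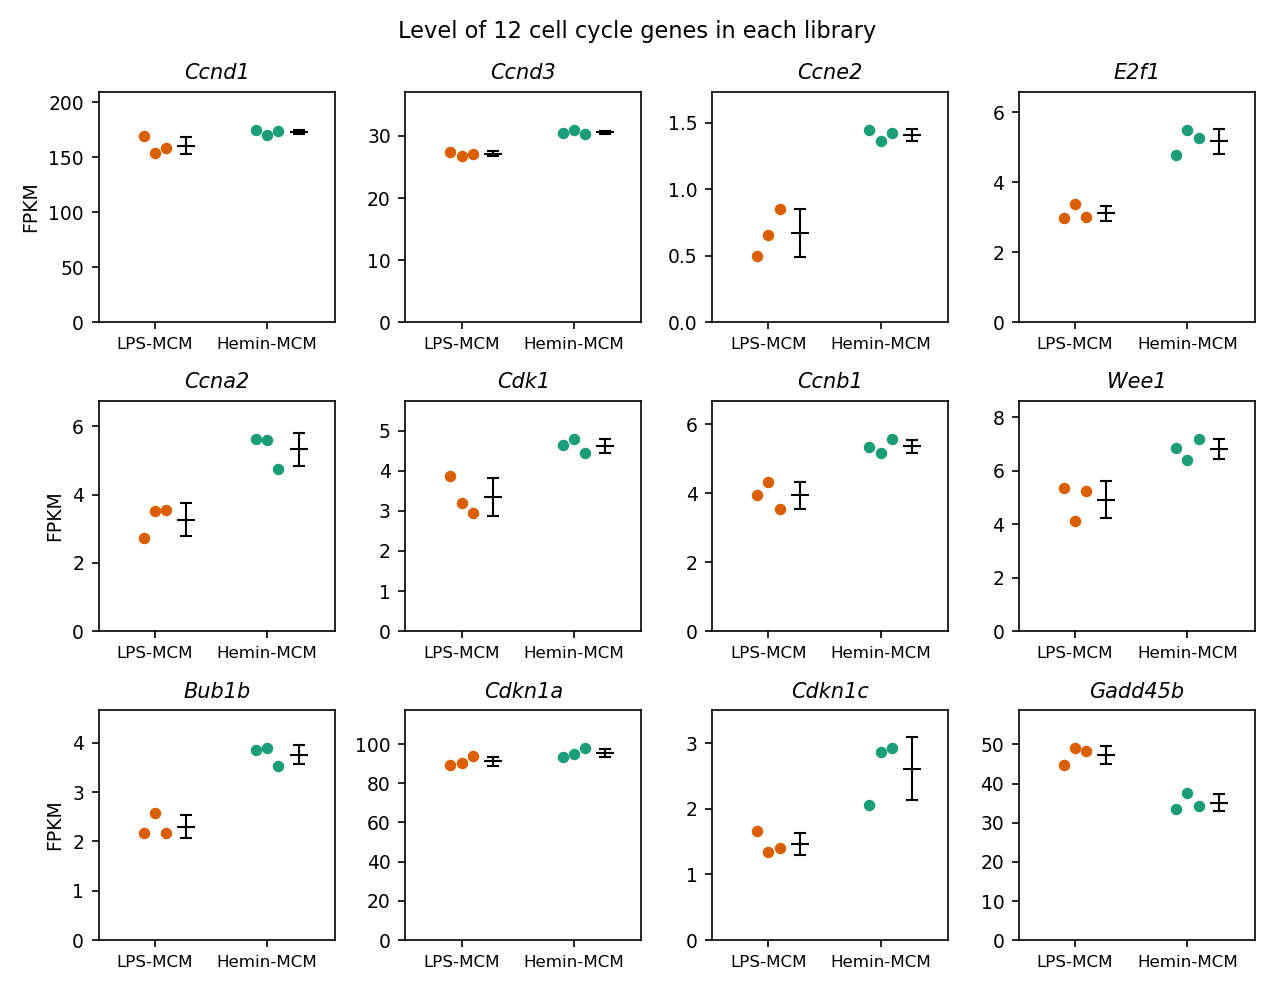
Points are the FPKM of single libraries, 3 each for LPS-MCM (orange) and Hemin-MCM (green), and bars are the mean ± SD. All axes start at 0. Ccne2, E2f1, Ccna2, Cdk1, Ccnb1, Wee1, Bub1b and Cdkn1c are lower in LPS-MCM without overlap, Gadd45b is higher, and Cdkn1a, at 89.2 to 97.8 FPKM, overlaps. Of the genes shown, Ccne2 met the level rule only through Hemin-MCM.

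The pocket proteins hold E2F factors inactive. Rb1 was at 20.2 ± 2.02 FPKM in LPS-MCM, against 21.9 ± 1.43 FPKM (limma adjusted p = 0.324). Rbl1, a relative of Rb1 whose gene is itself an E2F target, was at 2.26, 2.35 and 3.44 FPKM against 3.81, 3.99 and 3.30 FPKM. The third LPS-MCM library lay above the third Hemin-MCM library, and Rbl1 did not pass (-0.36 ± 0.12, limma adjusted p = 0.0564), but without that LPS-MCM library it did (0.0041). The activator E2f1 (chromosome 2, 154559400 to 154569892) was at 2.99, 3.37 and 3.00 FPKM in LPS-MCM and 4.78, 5.49 and 5.26 FPKM in Hemin-MCM. It was 1.66-fold higher in Hemin-MCM without overlap (-0.58 ± 0.07, limma adjusted p = 0.000388), the smallest adjusted p of all members. Among the members the other E2F genes, E2f3, E2f4 and E2f5, did not pass, with differences of 0.02, 0.10 and -0.03.

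The 7 CDK inhibitors did not move as 1 group. The Cip/Kip inhibitor Cdkn1a, a p53 target, was at 89.2, 90.5 and 93.8 FPKM in LPS-MCM and 93.5, 95.1 and 97.8 FPKM in Hemin-MCM (-0.07 ± 0.05, limma adjusted p = 0.362). Cdkn1b was at 40.7, 40.6 and 51.1 FPKM against 43.3, 41.5 and 40.2 FPKM (0.07 ± 0.08, limma adjusted p = 0.602), and its sign turned without the third LPS-MCM library (-0.035). Both groups overlapped for each of these abundant inhibitors. Cdkn1c (chromosome 7, 143458339 to 143461059), an imprinted gene in the mouse, was much less abundant, at 1.66, 1.34 and 1.41 FPKM against 2.06, 2.86 and 2.92 FPKM. It was lower in LPS-MCM without overlap, with a ratio of means of 1.78 (-0.54 ± 0.11, limma adjusted p = 0.00515).

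The INK4 inhibitors bind Cdk4 and Cdk6. Cdkn2b, the most abundant of them, was at 94.8 ± 4.01 FPKM in LPS-MCM, against 90.3 ± 6.67 FPKM (limma adjusted p = 0.474), and Cdkn2d was at 7.33 ± 0.622 and 8.19 ± 0.62 FPKM (limma adjusted p = 0.24). Cdkn2c (chromosome 4, 109660876 to 109666756) was at 7.46, 6.52 and 8.79 FPKM against 9.87, 9.96 and 9.71 FPKM (-0.34 ± 0.09, limma adjusted p = 0.0204). Cdkn2a, whose locus codes for an INK4 inhibitor and for the p53 regulator Arf, which a gene-level value does not separate, was at 6.87, 6.70 and 6.28 FPKM against 7.35, 9.02 and 8.30 FPKM (-0.27 ± 0.08, limma adjusted p = 0.0303). Both were lower in LPS-MCM without overlap. Cdkn2c lost its call when LPS-MCM 1 or 2 was left out (limma adjusted p = 0.0557 and 0.0504), or Hemin-MCM 1, 2 or 3 (0.0585, 0.0635 and 0.0568), and without the level filter (0.0656). Cdkn2a lost it when LPS-MCM 1, 2 or 3 was left out (limma adjusted p = 0.051, 0.0587 and 0.0762), or Hemin-MCM 2 or 3 (0.121 and 0.0978). The Cdkn2a call was also lost with median-of-ratios scaling (limma adjusted p = 0.0588), under quantile normalization (0.0762) and without the level filter (0.0736). Cdkn1c kept its call in all 12 alternatives, and the count of lower inhibitors over them was 1 to 3.

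S phase begins when origins, marked by the origin recognition complex (ORC), are loaded with the MCM helicase and then fired by Cdk2 and by the Cdc7 kinase with Dbf4. The ORC genes among the members (Orc2 to Orc6) had differences of -0.10 to 0.05 and none passed. Cdc45, a part of the active helicase (chromosome 16, 18780447 to 18811972), was at 0.82, 0.76 and 0.70 FPKM in LPS-MCM and 1.5, 1.28 and 1.6 FPKM in Hemin-MCM. Its Hemin-MCM mean was 1.91-fold higher (-0.48 ± 0.09, limma adjusted p = 0.00293), without overlap, and with a pseudocount of 0.1 the difference was -0.851. Cdc45 met the level rule only through Hemin-MCM, so it had to differ in that direction. Cdc7 and Dbf4 did not pass (-0.21 ± 0.08 and -0.23 ± 0.12, limma adjusted p = 0.105 and 0.225).

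Cyclin A has a pair of genes, and both were lower in LPS-MCM. Ccna2 (chromosome 3, 36564865 to 36573038), the cyclin A of dividing somatic cells, was at 2.72, 3.53 and 3.56 FPKM in LPS-MCM and 5.62, 5.59 and 4.77 FPKM in Hemin-MCM (-0.57 ± 0.10, limma adjusted p = 0.00208). Ccna1 (chromosome 3, 55045469 to 55057634), known in the mouse for its role in male meiosis, was at 0.55, 0.66 and 0.56 FPKM against 1.19, 1.87 and 1.81 FPKM. The Ccna1 mean was 2.75-fold higher in Hemin-MCM, the group through which alone it met the level rule (-0.71 ± 0.11, limma adjusted p = 0.00138, and a difference of -1.298 with a pseudocount of 0.1). Neither gene's groups overlapped. Cdc25a, the phosphatase that activates Cdk2, did not pass (-0.13 ± 0.08, limma adjusted p = 0.31), and nor did the SCF subunit Skp2, which targets Cdkn1b for destruction (-0.10 ± 0.08, limma adjusted p = 0.477), whose sign turned under quantile normalization (0.002).

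Reads of overlapping genes bear on these values, since the kit keeps strand but whether the counting used it is not given in the sources used here. RefSeq on GRCm38 places another gene over 7 of the 18 called members. Of these partners, 4 were tested and none was called: Exosc9 over Ccna2 (limma adjusted p = 0.917), Ints8 over Ccne2 (0.781), Ufd1 over Cdc45 (0.965) and Bysl over Ccnd3 (0.923). Ccnb1 and Ccnd3 have pseudogene copies (Ccnb1-ps and Ccnd3-ps), with which the counting can divide reads, and their values are uncertain for that reason.

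The genes of mitotic entry were the role with the most negative median. All 6 members of this role had a negative difference, 3 passed, and those 3 passed in all 12 alternatives. Of all 11688 genes tested, 7091 had a negative difference and 13.8% were lower. Cdk1, the kinase that starts mitosis (chromosome 10, 69335146 to 69352912), was at 3.87, 3.19 and 2.96 FPKM in LPS-MCM and 4.64, 4.78 and 4.44 FPKM in Hemin-MCM (-0.38 ± 0.09, limma adjusted p = 0.0107). Its partner cyclin B1 (Ccnb1, chromosome 13, 100778739 to 100786486) was at 3.94, 4.32 and 3.56 FPKM against 5.35, 5.17 and 5.57 FPKM (-0.37 ± 0.08, limma adjusted p = 0.00621). Wee1 (chromosome 7, 110122059 to 110143299), the kinase that holds Cdk1 inactive, was at 5.37, 4.13 and 5.26 FPKM against 6.85, 6.42 and 7.18 FPKM (-0.41 ± 0.09, limma adjusted p = 0.0095). Hemin-MCM means were 1.38-fold, 1.36-fold and 1.38-fold higher, and the groups of these 3 genes, an activating pair and an inhibitor, did not overlap.

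The other 3 genes of mitotic entry did not pass. Cyclin B2 (Ccnb2) was at 3.32 ± 0.276 FPKM in LPS-MCM, against 3.63 ± 0.44 FPKM (limma adjusted p = 0.502). The phosphatase gene Cdc25b was at 0.86, 1.53 and 1.19 FPKM against 1.77, 1.58 and 1.80 FPKM (limma adjusted p = 0.0739). The Polo-like kinase Plk1 was at 3.22, 3.83 and 3.01 FPKM against 4.67, 4.68 and 3.63 FPKM (-0.29 ± 0.10, limma adjusted p = 0.0739). For Cdc25b the second LPS-MCM library came close to the Hemin-MCM libraries, and for Plk1 it lay above the third Hemin-MCM library. Without the second LPS-MCM library Cdc25b and Plk1 passed (limma adjusted p = 0.0205 and 0.0391), and Plk1 also without the third Hemin-MCM library (0.0282), which makes 5 of 6 the highest count.

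The promoters of Cdk1, Ccnb1 and Bub1b are shown because these genes start or guard mitosis, were called lower, and belong to the roles whose promoters are known for CCAAT boxes and CHR elements. The sequences are from RefSeq on GRCm38.p6, each from 250 bases before to 50 bases after an annotated gene start, 5′ to 3′ on the gene's strand. Capitals mark the CHR element (TTTGAA), the CCAAT box (CCAAT) and E2F sites (TTTCCCGC, TTTCGCGC, TTTGCCGC or TTTGGCGC), matched on either strand, with overlaps allowed. They lie at chr10:69352863-69353162 on the minus strand (Cdk1), chr13:100786437-100786736 on the minus strand (Ccnb1) and chr2:118597961-118598260 on the plus strand (Bub1b).
Cdk1: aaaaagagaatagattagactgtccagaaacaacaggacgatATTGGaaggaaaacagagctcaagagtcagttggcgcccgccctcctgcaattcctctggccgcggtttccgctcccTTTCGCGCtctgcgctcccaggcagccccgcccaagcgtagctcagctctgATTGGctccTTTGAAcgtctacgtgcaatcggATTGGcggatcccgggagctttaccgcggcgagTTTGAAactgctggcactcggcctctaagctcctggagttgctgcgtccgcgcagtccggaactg
Ccnb1: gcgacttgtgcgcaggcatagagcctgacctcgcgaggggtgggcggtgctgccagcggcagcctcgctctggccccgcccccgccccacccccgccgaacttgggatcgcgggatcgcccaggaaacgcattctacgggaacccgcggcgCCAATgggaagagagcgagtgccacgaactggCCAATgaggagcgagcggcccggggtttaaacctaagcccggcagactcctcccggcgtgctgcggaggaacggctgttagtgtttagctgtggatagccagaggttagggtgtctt
Bub1b: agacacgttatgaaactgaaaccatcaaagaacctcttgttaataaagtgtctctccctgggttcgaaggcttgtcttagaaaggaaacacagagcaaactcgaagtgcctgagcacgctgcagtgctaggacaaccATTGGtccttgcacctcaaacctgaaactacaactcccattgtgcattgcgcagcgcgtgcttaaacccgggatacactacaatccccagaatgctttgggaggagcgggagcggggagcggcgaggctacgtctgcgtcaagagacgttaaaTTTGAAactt

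In these windows Cdk1 had 2 CHR elements, 3 CCAAT boxes and 1 E2F site, Ccnb1 had 2 CCAAT boxes, and Bub1b had 1 CHR element and 1 CCAAT box. A promoter sequence was matched for 81 of the 101 members. A gene with several starts counted once, and a match in the window of any of its starts sufficed. CCAAT boxes were found for 5 of 5 genes of mitotic entry, 8 of 10 of the spindle checkpoint and anaphase, and 45 of 81 members (55.6%), against 41.1% of all 27025 genes in the promoter table and 43.3% of the tested genes with a promoter. CHR elements were found for 3 of 5 and 4 of 10 genes of these roles and for 17 of 81 members (21%), against 20.2% and 13.8%. E2F sites were found for 12 of 81 members (14.8%), against 2.6% and 4.77%. Among the 12 called lower members with a promoter, 10 held a CCAAT box, 3 a CHR element and 3 an E2F site. Among the 67 with a promoter that did not pass, 33 (49.3%), 14 and 9 did. The lower members Ccnd3, Cdkn2a and Cdkn2c held a CCAAT box only in the window of their second listed start. For E2f1 and Ccna1 the single window lies inside the span given for the gene, not at its outermost start. The higher members Gadd45b and Gsk3b held 2 and 4 CCAAT boxes. A match describes the letters of the window and was not tested against the differences.

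The spindle checkpoint delays anaphase until every chromosome is attached. Its kinase Bub1b (BubR1, chromosome 2, 118598202 to 118641592) was at 2.16, 2.57 and 2.17 FPKM in LPS-MCM and 3.86, 3.89 and 3.53 FPKM in Hemin-MCM. The Hemin-MCM mean was 1.63-fold higher without overlap (-0.53 ± 0.08, limma adjusted p = 0.000948). Mad2l1 (chromosome 6, 66535221 to 66541107), which inhibits the APC/C activator Cdc20, was at 4.52, 5.76 and 5.11 FPKM against 5.96, 6.47 and 7.42 FPKM (-0.31 ± 0.09, limma adjusted p = 0.0393). Its groups lay close together, and the call was lost when LPS-MCM 1 or 3 (limma adjusted p = 0.128 and 0.0767) or Hemin-MCM 2 or 3 (0.0857 and 0.155) was left out and with median-of-ratios scaling (0.0644).

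Other checkpoint and anaphase genes did not pass. Cdc20 was at 2.97, 5.80 and 4.48 FPKM in LPS-MCM and 6.17, 6.04 and 6.33 FPKM in Hemin-MCM (-0.44 ± 0.16, limma adjusted p = 0.0745). The LPS-MCM libraries of Cdc20 were spread widely, and without the second of them it passed (limma adjusted p = 0.00758). The kinase gene Bub1 was at 1.17 ± 0.177 and 1.57 ± 0.214 FPKM (limma adjusted p = 0.0998). The securin gene Pttg1 was at 11.8 ± 0.403 and 11.7 ± 0.784 FPKM (limma adjusted p = 0.899).

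Few genes of the ubiquitin ligases that time the cycle passed. Of 12 APC/C subunit genes, 1 was lower and none was higher, and their median difference was -0.027. Among all genes tested 13.8% were lower and 6.72% higher. The lower APC/C gene was Anapc11, the RING subunit that contacts the ubiquitin-conjugating enzyme (chromosome 11, 120598421 to 120608198), at 7.01, 8.09 and 6.88 FPKM in LPS-MCM and 9.26, 9.90 and 10.1 FPKM in Hemin-MCM (-0.37 ± 0.07, limma adjusted p = 0.00439). Its groups did not overlap, and it passed in all 12 alternatives. None of the 4 SCF genes and none of the 5 cohesin genes passed, with differences of -0.10 to 0.12 and -0.06 to 0.11.

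Among the members, 2 were higher in LPS-MCM than in Hemin-MCM. Gadd45b (chromosome 10, 80930091 to 80932204), a stress gene and known NF-kB target, was at 44.7, 49.0 and 48.3 FPKM in LPS-MCM and 33.4, 37.6 and 34.3 FPKM in Hemin-MCM. It was 1.35-fold higher without overlap (0.42 ± 0.06, limma adjusted p = 0.000746) and passed in all 12 alternatives. Its relatives did not pass, with Gadd45a at 36.8 ± 1.41 and 33.9 ± 1.55 FPKM (limma adjusted p = 0.162) and Gadd45g at 45.5 ± 3.34 and 48.3 ± 1.16 FPKM (limma adjusted p = 0.346). Whether Gadd45b differs from its relatives was not tested.

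Gsk3b (chromosome 16, 38089001 to 38246084), the kinase that marks cyclin D1 and Myc for destruction, was at 23.2, 22.5 and 26.5 FPKM against 20.4, 20.4 and 19.7 FPKM (0.24 ± 0.06, limma adjusted p = 0.0246). It lost its call when Hemin-MCM 1, 2 or 3 was left out (limma adjusted p = 0.0605, 0.0646 and 0.0935) and without the level filter (0.0545), which leaves Gadd45b as the 1 higher member there. Myc was at 14.2 ± 1.61 and 12.6 ± 0.368 FPKM (limma adjusted p = 0.184). The TGF-beta signal gene Smad3 did not pass (0.16 ± 0.05, limma adjusted p = 0.0523) but did without the third LPS-MCM library (0.017) and with median-of-ratios scaling (0.0237).

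Of the 11 genes of the DNA damage and p53 checkpoint, 1 was lower besides the higher Gadd45b. Chek2, the kinase activated by Atm after DNA breaks (chromosome 5, 110839800 to 110874140), was at 1.74, 1.74 and 1.94 FPKM in LPS-MCM and 2.89, 2.25 and 2.68 FPKM in Hemin-MCM (-0.36 ± 0.09, limma adjusted p = 0.0151). The groups did not overlap, and the call was lost when Hemin-MCM 1 or 3 was left out (limma adjusted p = 0.0608 for each) and under quantile normalization (0.0719). Trp53, which encodes p53, was at 55.3 ± 1.87 and 56.7 ± 0.456 FPKM (-0.04 ± 0.05, limma adjusted p = 0.655; the sign turned with median-of-ratios scaling, 0.009). Its inhibitor gene Mdm2 was at 18.4 ± 0.653 and 19.4 ± 0.736 FPKM (limma adjusted p = 0.412). Of 14 p53 target genes that are no members, 1 was lower (Sesn1) and 2 were higher (Btg2 and Tnfrsf10b), with a median difference of -0.019. These counts stand beside 13.8% lower and 6.72% higher over all genes tested. Btg2 lost its call when LPS-MCM 1 or 3 (limma adjusted p = 0.0954 and 0.0611) or Hemin-MCM 1, 2 or 3 (0.0771, 0.0698 and 0.146) was left out. The count of these p53 targets turned to 2 lower and 1 higher when LPS-MCM 3 or Hemin-MCM 1 was left out.

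Level and difference went together among the members. Of 49 members with a mean under 10 FPKM, 15 (30.6%) were lower and 0 were higher by limma's adjusted p, where 15.4% and 4.52% of all tested genes in that range were. Of 52 members at 10 FPKM or more, 1 (1.92%) was lower and 2 (3.85%) were higher, where 12.2% and 8.94% of all such genes were. The 15 include Ccne2, Ccna1 and Cdc45, which met the level rule only through Hemin-MCM. The median level was 4.22 FPKM over the 16 lower members and 16.8 FPKM over the 83 that did not pass. The limit of 10 FPKM was chosen after the values were seen, and the difference between the ranges was not tested.

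**Figure D4:**
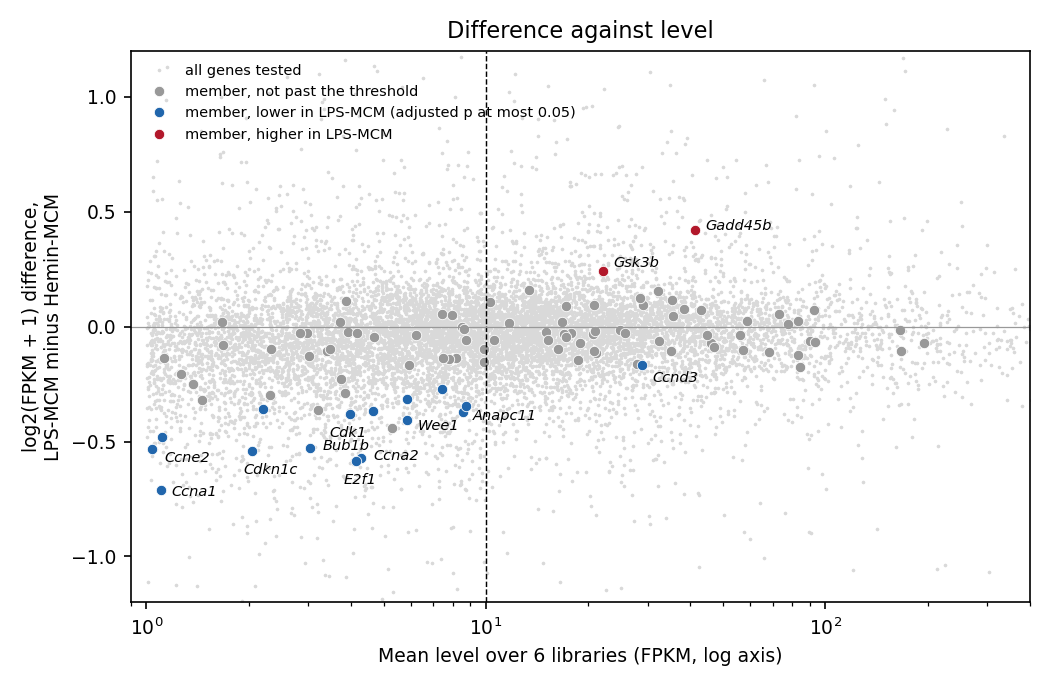
The horizontal axis is the mean level over the 6 libraries (FPKM, log axis) and the vertical axis the difference in log2(FPKM + 1), LPS-MCM minus Hemin-MCM; grey dots are all genes tested, of which 159 lie outside the axes, and larger points are the members. The dashed line is at 10 FPKM. Of the 16 blue points, 15 lie to its left, and Ccnd3 lies to its right.

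The rule on level left out 11 genes, and several of them had the same sign. In the fit without a level filter, Espl1 (separase, which cuts cohesin at anaphase) was at 0.636 FPKM in LPS-MCM and 1.26 FPKM in Hemin-MCM (limma adjusted p = 0.00155). Cdc6, which loads the helicase, was at 0.326 and 0.824 FPKM (limma adjusted p = 0.00268), and Orc1 at 0.0989 and 0.421 FPKM (0.00459). Pkmyt1, an inhibitory kinase of Cdk1 (limma adjusted p = 0.00865), Chek1 (0.0273) and E2f2 (0.0489) also passed with lower values in LPS-MCM. The share of all genes that passed in that fit is not given here, so these calls cannot be set beside it, and their levels are near the floor. Ttk, Cdc25c, Mad1l1, Smc1b and Ccnb3 did not, and the last gene was at 0 in 5 libraries. Just inside the limit were Ccne2 (mean 1.04 FPKM), Ccna1 (1.11) and Cdc45 (1.11), and just outside it Pkmyt1 (0.986), Ttk (0.954) and Espl1 (0.949).

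Genes of the same processes that are no members were counted from lists, beside 13.8% lower over all genes tested. All 7 pathway genes shared with DNA replication were lower in LPS-MCM, from -1.06 (Mcm5) to -0.39 (Pcna), and they stayed lower in all 12 alternatives. Of 13 tested S phase genes outside the pathway 10 were lower, among them Rrm2, a subunit of ribonucleotide reductase (6.2 ± 0.408 against 10.6 ± 0.714 FPKM), and Tk1. Clspn, also among them, met the level filter only through Hemin-MCM (0.888 against 1.7 FPKM), so it had to differ. Of 18 mitotic genes outside the pathway 12 were lower, among them Mki67, a marker of dividing cells (4.51 ± 0.406 against 7.03 ± 0.56 FPKM, -0.54 ± 0.08, limma adjusted p = 0.000865), and Top2a (10.7 ± 0.123 against 16.4 ± 0.485 FPKM). None of either list was higher. The count of lower mitotic genes was 6 without the level filter, 8 under quantile normalization and 7 without the second Hemin-MCM library, and 8 without the first.

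The role lists also held 22 tested genes that the table does not annotate to the pathway. Of them 7 (31.8%) were lower, against 13.8% of all genes tested, and none was higher. Cdt1, the helicase loader (1.54 ± 0.226 against 3.18 ± 0.417 FPKM, limma adjusted p = 0.000636), its inhibitor Gmnn (1.35 ± 0.26 against 2.5 ± 0.264 FPKM, 0.0023) and the mitotic kinase Aurkb (1.92 ± 0.13 against 3.37 ± 0.288 FPKM, 0.000556) passed in all 12 alternatives. The other 4, Aurka, Bora, Cdca5 and Anapc15, passed in 7, 4, 5 and 3 alternatives. All 4 lost the call when LPS-MCM 3 was left out (limma adjusted p = 0.0725, 0.0914, 0.102 and 0.094). The count of lower genes in this list was 4 when LPS-MCM 1 or any 1 Hemin-MCM library was left out, and 3 under quantile normalization.

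Most microglia and ependymal markers were lower in LPS-MCM, while at most 50% of the tested genes of each other marker list were. Over all genes tested, 13.8% were lower. Of 14 microglia markers 12 were lower in LPS-MCM, with Cx3cr1 at 5.92 ± 0.401 against 34 ± 0.968 FPKM and none at 0, and 6 of 7 ependymal markers were lower, with Foxj1 at 127 and 169 FPKM. The lower microglia markers P2ry12 (0.397 against 2.05 FPKM) and Tmem119 (0.518 against 4.63 FPKM) met the level filter only through Hemin-MCM, so they had to differ. Of 8 astrocyte markers 4 were lower and 1 was higher, and of 7 oligodendrocyte lineage markers 2 were lower (summed level 104 to 111 FPKM against 128 to 136 FPKM). Of 4 tested neuron markers 2 were lower and 1 was higher (55.4 to 60.3 FPKM against 66.4 to 71.4 FPKM), with Rbfox3 at or under 0.1 FPKM, and of 7 fibroblast markers none was lower and 2 were higher (29.4 to 34.7 FPKM against 25.8 to 40.8 FPKM). The lower astrocyte markers were 2 when LPS-MCM 1 or any 1 Hemin-MCM library was left out, the lower oligodendrocyte lineage markers were 1 without LPS-MCM 1, Hemin-MCM 2 or Hemin-MCM 3, and the lower neuron markers were 1 without LPS-MCM 1, Hemin-MCM 1 or Hemin-MCM 3. Bulk libraries hold the RNA of all these cells, and the part of any of them in the cell cycle differences was not tested. In whole cultures, fewer dividing cells and less RNA of these genes per cell cannot be told apart.

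Counts by the members' other annotation in the table stand beside 13.8% lower and 6.72% higher over all genes tested. Of 47 members with the GO term cell division, 11 (23.4%) were lower and none was higher, and of the 54 without it 5 (9.26%) were lower and 2 higher. Of 35 members also in the cellular senescence pathway 9 were lower and 1 was higher, and of 22 also in p53 signalling 6 were lower and 1 was higher. Of 35 also in oocyte meiosis 5 (14.3%) were lower and none was higher, and of 19 also in ubiquitin mediated proteolysis 1 was lower and none was higher. Ccna1 and Ccne2 are in the cell division and senescence sets, Ccne2 is in the p53 and oocyte meiosis sets, and Cdc45 lacks the cell division term. These genes met the level rule only through Hemin-MCM and had to be lower in LPS-MCM, which raises the counts of those sets. Members can belong to several of these sets, and no set was tested against another.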

How the data were processed

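RNA of 6 libraries was used, 3 of LPS-MCM and 3 of Hemin-MCM. The library kit was stranded and enriched poly-A RNA, per the labels' protocols. The authors deposited FPKM values for each gene in 1 table. Per the submitters' processing notes the build was mm10 and DESeq was used; for the aligner and the counter, the tool is not given in the sources used here. By treatment word and number, 6 columns were joined to samples, and 3 further columns of values, which match no sample title, were not used.

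Genes averaging 1 FPKM or more (11688) were tested on log2(FPKM + 1) in limma 3.58.1 (R 4.3.3), with a variance trend over the mean, 4 residual degrees of freedom, two-sided p-values and Benjamini-Hochberg adjustment over all genes. The code was tested on simulated data. Levels are means ± SD of 3 libraries.

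The members and lists were chosen with earlier results of these data known. Named by rule are all members past an adjusted p of 0.05, all CDK inhibitors, a fixed set of regulators (the main cyclins, CDKs, pocket proteins, checkpoint and Gadd45 genes), Mcm5, Pcna, Mki67 and Top2a; other genes were named after their values were seen. Coordinates are RefSeq's on GRCm38.p6.

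Of 8382 low values, 54.5% lay within 0.1 step of a whole multiple of the gene's lowest value, where an even spread would give 20%. The values were first scaled by depths set from the same low genes. Reads were not recovered and no count test was run. Transcript lengths of 227 genes with 1 transcript (GENCODE M21), chosen because all their low values matched, gave the depth estimate, with quartiles of 35400000 and 47500000 fragments. The 12 alternatives were another pseudocount, no level filter, 2 scalings, no variance trend, a replicate block and leaving out each library.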

Additional observations from a re-analysis of the deposited data

How the results depend on the processing

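Of the 18 called members, 12 passed in all 12 alternatives: Ccne2, E2f1, Cdkn1c, Cdc45, Ccna1, Ccna2, Cdk1, Ccnb1, Wee1, Bub1b and Anapc11 lower and Gadd45b higher. Among them Ccne2, Cdc45 and Ccna1 met the level rule only through Hemin-MCM, so they had to be lower in LPS-MCM. The fits that left out a library kept the genes of the main fit and do not lift that limit. The count of lower members, 16, was 16 with a pseudocount of 0.1, 13 without the level filter, with median-of-ratios scaling and under quantile normalization, and 17 without the variance trend. Leaving out single libraries gave 12 to 18. The count of higher members, 2, was 1 without the level filter and 1 to 3 when single libraries were left out. It was 1 without the first, the second or the third Hemin-MCM library. Signs turned, with no call, for Cdkn1b without the third LPS-MCM library (-0.035; 0.128 at most with another library left out), for Skp2 under quantile normalization (0.002) and for Trp53 with median-of-ratios scaling (0.009). Over all genes tested, median-of-ratios scaling moved the median difference by 0.039 and the share of higher genes among the calls from 32.8% to 46%, and quantile normalization gave 45%.

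Same-numbered libraries of the groups deviated together only weakly or not at all (correlations of 0.0796, 0.107 and -0.106), so the numbers are not taken to pair the samples. With the replicate block 17 members were lower and 2 higher, and 15 of the 16 lower calls were kept, with Ccnd3 lost and Plk1 and Cdc20 gained. The p53 target genes that are no members also turned to 2 lower and 1 higher with the block. The depth estimate rests on few genes, and FPKM carries no counting error, so the precision of the low genes is known from the spread of 3 libraries alone.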
